A study of Rattus norvegicus with 12 samples.

Results

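The intercalated disc is the seam that joins heart muscle cells end to end, and its messenger RNAs were followed here through 10 of the array's 14217 singly named genes in cultured rat papillary muscle. The genes were chosen by name: the connexins Gja1 and Gja5, the cadherins Cdh2 and Dsg2, the plaque proteins Dsp, Jup and Pkp2, the catenins Ctnnb1 and Ctnna1, and the scaffold Tjp1. Every probe set with a single symbol among these names was taken, which gave 20 of the 31042 probe sets that were not controls. Of these 20, 14 had a mean log2 intensity above the filter on dim probe sets (4.91, the 40th percentile of all means) and were tested, with at least 1 for each of the 10 genes. The other 6, read at 3.17 to 5.17 log2 across the arrays, belonged to Gja1 (2 probe sets), Gja5, Dsp, Tjp1 and Ctnnb1, and each of these genes had a brighter probe set as well.

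Right ventricular papillary muscles came from 12 male LBNF1 rats, a single muscle from each animal, and were paced at 1 Hz and 37 °C for 12 h outside the body. Each muscle was held at a mean stretch of 16% or 4% of slack length and shortened cyclically by a target of 16% or 4%. The 4 combinations gave groups of 3 muscles each; that with both inputs low is called the low-low group below. Labelled ages ran from 72 to 85 and weights from 267 to 318, both without a stated unit. The muscles carried no labelled allele or drug, worked outside the circulation, and were all cultured, with no uncultured muscle among the samples. Each array read RNA of the whole muscle, so that fewer cells of a type and less RNA per cell cannot be told apart.

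Desmosomes, adherens junctions and gap junctions meet in the disc. In desmosomes the cadherins desmoglein and desmocollin bridge the gap between cells and are tied by plakoglobin and plakophilin to desmoplakin, which holds the desmin filaments. In adherens junctions N-cadherin is tied to actin through β-catenin and α-catenin. Connexins form the gap junction channels through which the electrical impulse passes from cell to cell, and ZO-1 borders those channels. Mutations in human desmosomal genes cause arrhythmogenic cardiomyopathy.

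The 3 low-low arrays stood apart from the other 9 in features besides the mechanical labels. Control probe sets at both transcript ends of Gapdh and Actb gave an end index, the mean excess of 3' over 5' signal, of 1.36 ± 0.29 log2 (SD, n = 3) in low-low muscles against 3.31 ± 0.51 (SD, n = 9). For the hexokinase controls the order was the opposite, with an excess of 1.30 ± 0.04 log2 (SD, n = 3) against 0.87 ± 0.21 (SD, n = 9). Labelled weights of the low-low animals, 305 to 318, did not overlap those of the rest, 267 to 297. The end index ran from 1.13 to 1.69 in low-low muscles and from 2.56 to 4.33 elsewhere, also without overlap. All 3 low-low animals were labelled with the same age, 75, which lay within the 72 to 85 of the rest. These differences and the mechanical group cannot be told apart by design, and their part in the results below was not tested. Fits with the end index or weight as a covariate are given below as values. They cannot separate either from the group.

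The members' largest differences set low-low muscles apart from all others. In the low-low muscles the brighter N-cadherin probe sets, desmoplakin and, less firmly, plakoglobin read higher. The dim N-cadherin probe set did not pass. Plakophilin 2, desmoglein 2, α-catenin and ZO-1 read lower, and the probe sets of β-catenin went both ways. Both connexins fell short of the threshold. This comparison was made because those arrays were already known to stand apart. In limma, with Benjamini-Hochberg adjustment over all 18625 probe sets tested, 11 of the 14 member probe sets passed an adjusted p of 0.05, 5 higher and 6 lower. Over all probe sets 56.1% passed, 27.6% higher and 28.6% lower, so that a call in this comparison is common. The median difference was -0.33 log2 over the members and -0.05 over all probe sets tested, and the median size without sign was 0.49 against 0.41. In 9 of the 14 member probe sets the low-low arrays did not overlap the other 9, which held for 43.1% of all probe sets tested. After a second quantile normalization 3 were called higher and 7 lower. With the end index in the model, the calls that held were Cdh2 1368642_at (1.70, adjusted p = 0.00264) and Ctnnb1 1369733_at (3.23, adjusted p = 0.000132). With weight in the model those and Pkp2, Ctnnb1 1373067_at and Ctnnb1 1373470_at held. Calls over all 18625 probe sets also fell, from 10454 to 3364 with the end index and to 5266 with weight.

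**Figure D1:**
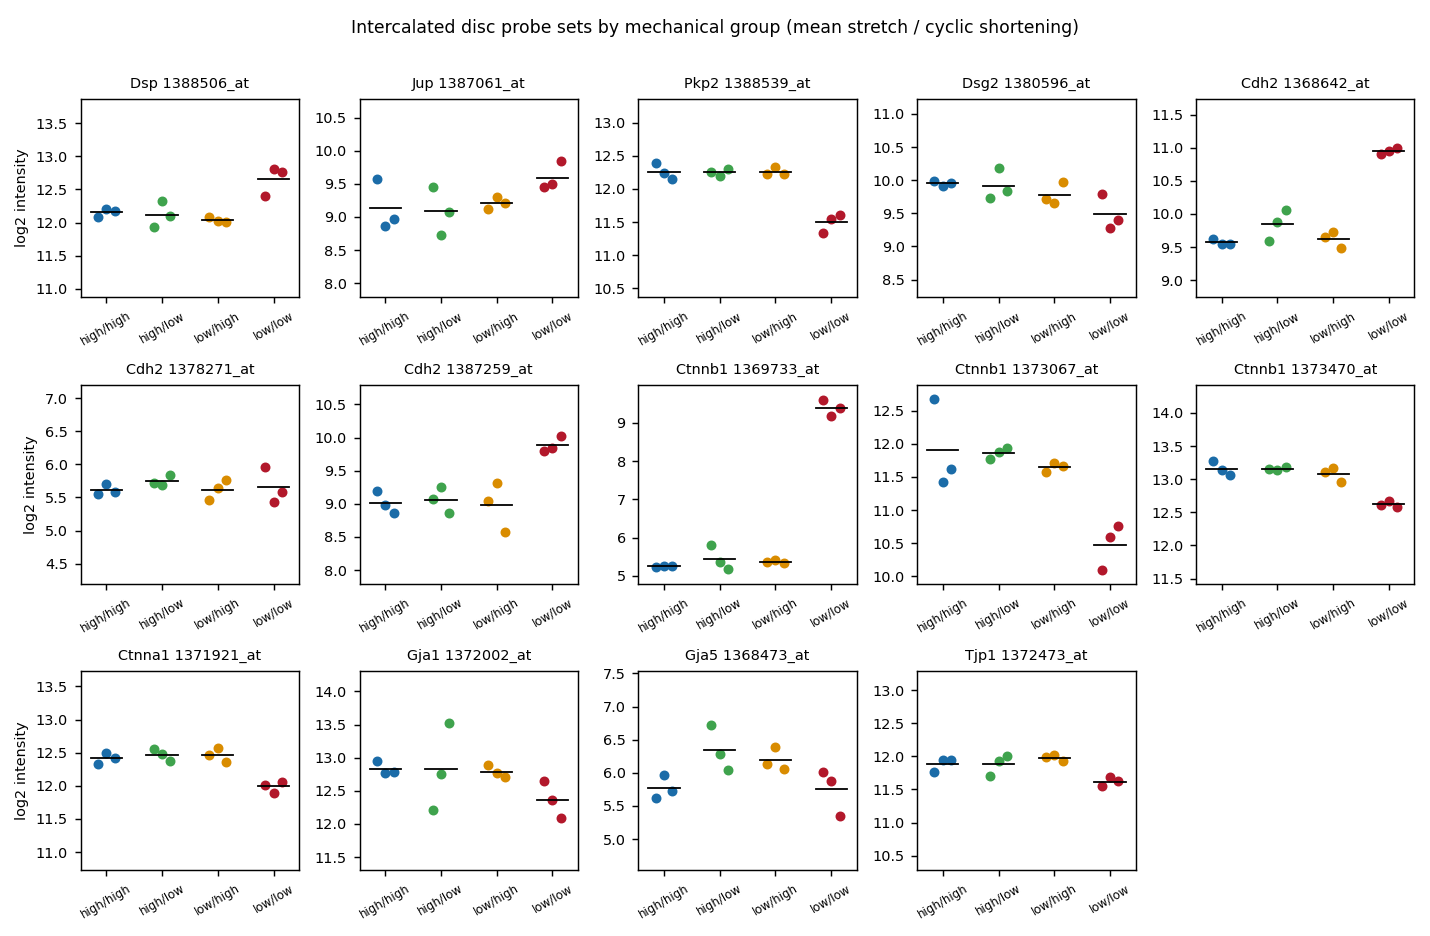
Log2 intensity of the 14 tested member probe sets in each of the 12 muscles, by group (mean stretch / cyclic shortening); points are muscles, bars are group means, and each panel has its own axis range. The low-low muscles (red) lie apart for most probe sets, from 9.18 to 9.60 against 5.19 to 5.81 for Ctnnb1 1369733_at, while the other 3 groups lie close together.

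Among the desmosomal members, Dsp encodes desmoplakin, the plaque protein that anchors desmin filaments. Its bright probe set 1388506_at read 12.40, 12.80 and 12.77 log2 in the low-low muscles and 11.94 to 12.32 (median 12.08) in the other 9. The sets of arrays did not overlap, and the difference was 0.55 log2 (SE 0.11, 1.47-fold, adjusted p = 0.00108). The call ended after a second quantile normalization (0.26, adjusted p = 0.0658), and with the end index (0.93, adjusted p = 0.0576) or weight (0.50, adjusted p = 0.130) in the model. The second Dsp probe set, 1392258_at, was under the filter at 4.73 to 5.17 log2.

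Jup encodes plakoglobin, an armadillo-repeat protein of both desmosomes and adherens junctions. Probe set 1387061_at read 9.46, 9.49 and 9.84 log2 in the low-low muscles and 8.73 to 9.57 (median 9.11) elsewhere, and the arrays overlapped. The difference of 0.45 log2 (SE 0.17, adjusted p = 0.0406) lost its call in 9 of the 12 fits that left out 1 array, with adjusted p up to 0.193. It also turned to -0.61 log2 (adjusted p = 0.305) with the end index in the model, and did not pass after a second quantile normalization (0.38, adjusted p = 0.0944).

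Pkp2 encodes plakophilin 2, which links desmosomal cadherins to desmoplakin and is the gene most often mutated in arrhythmogenic cardiomyopathy. Probe set 1388539_at read 11.34, 11.55 and 11.61 log2 in the low-low muscles and 12.16 to 12.38 (median 12.24) in the others, without overlap. It was lower by -0.76 log2 (SE 0.09, 0.591 times the level, adjusted p = 2.21e-05), with an adjusted p of at most 0.000246 when any 1 array was left out. With the end index in the model the difference was -0.85 log2 and did not pass (adjusted p = 0.0517).

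Dsg2 encodes desmoglein 2, the desmoglein of heart muscle. Probe set 1380596_at read 9.79, 9.27 and 9.39 log2 in the low-low muscles and 9.65 to 10.18 (median 9.92) elsewhere, with overlap through the first low-low muscle. The difference was -0.40 log2 (SE 0.13, adjusted p = 0.0208). It did not pass without low-low replicate 2 (-0.29, adjusted p = 0.126) or replicate 3 (-0.35, adjusted p = 0.0879), nor with the end index (-0.37, adjusted p = 0.553) or weight (-0.30, adjusted p = 0.433) in the model. By these calls, none of which held with the end index in the model, desmoplakin and plakoglobin read higher where plakophilin 2 and desmoglein 2 read lower.

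The promoter windows of Dsp and Jup, called higher above, and of Dsg2, called lower, are shown side by side. They come from RefSeq (build GRCr8) and run from 250 bases before to 50 after a transcript start, 5' to 3' on the gene's strand. Windows were given for 7 of the 10 members. Capitals mark matches on either strand to the GC box (GGGCGG), the CCAAT box (CCAAT), the TATA box (TATAAA), the E-box (CANNTG), the AP-1 site (TGANTCA) and the TCF/LEF core (CTTTGA); no capitals of different motifs overlap in these 3 windows. Dsp lies at chr17:26877072-26877371 on the minus strand, Jup at chr10:85827380-85827679 on the minus strand and Dsg2 at chr18:12121037-12121336 on the plus strand. The start used lies 298 bases inside the outer end of the annotated gene for Dsp, 452 for Jup and 0 for Dsg2.
Dsp: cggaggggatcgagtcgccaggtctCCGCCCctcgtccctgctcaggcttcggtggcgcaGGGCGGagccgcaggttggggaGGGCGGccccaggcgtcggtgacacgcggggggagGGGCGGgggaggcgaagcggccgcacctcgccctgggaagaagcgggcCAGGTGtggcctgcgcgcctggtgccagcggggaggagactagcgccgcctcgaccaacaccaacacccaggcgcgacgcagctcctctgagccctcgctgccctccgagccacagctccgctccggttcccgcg
Jup: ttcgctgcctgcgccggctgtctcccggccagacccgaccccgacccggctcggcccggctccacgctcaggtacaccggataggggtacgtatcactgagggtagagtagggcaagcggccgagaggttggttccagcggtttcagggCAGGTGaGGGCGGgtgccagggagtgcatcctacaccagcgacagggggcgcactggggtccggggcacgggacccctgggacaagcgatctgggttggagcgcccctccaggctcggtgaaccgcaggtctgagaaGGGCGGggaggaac
Dsg2: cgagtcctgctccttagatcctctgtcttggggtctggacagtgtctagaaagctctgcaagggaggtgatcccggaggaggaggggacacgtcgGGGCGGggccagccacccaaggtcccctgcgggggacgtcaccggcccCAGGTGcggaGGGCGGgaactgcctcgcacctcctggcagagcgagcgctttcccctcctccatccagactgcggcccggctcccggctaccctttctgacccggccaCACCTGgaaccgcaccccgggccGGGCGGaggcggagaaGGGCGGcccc
The Dsp window held 4 GC boxes and 1 E-box, the Jup window 2 and 1, and the Dsg2 window 4 and 2, and none of the 3 held any of the other 4 motifs. Of all 33469 windows, 33.1% held a GC box and 72.1% an E-box, 37.5% a CCAAT box, 14.2% a TATA box, 7.33% an AP-1 site and 16.1% a TCF/LEF core. Among the windows not shown, that of Gja5 held 2 GC boxes and 1 TATA box. Those of Gja1, Tjp1 and Ctnnb1 held 0 GC boxes. The Gja1 window held 1 CCAAT box and 1 AP-1 site, and the Tjp1 window 1 TCF/LEF core. Each of these windows held 1 E-box. A match is a description of the letters and not a site in use.

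In the adherens junction, Cdh2 encodes N-cadherin, the cadherin that holds heart muscle cells together. Probe set 1368642_at read 10.91, 10.94 and 10.996 log2 in the low-low muscles and 9.48 to 10.06 (median 9.62) in the other 9. There was no overlap, and the difference was 1.27 log2 (SE 0.10, 2.41-fold, adjusted p = 8.44e-07). A second probe set, 1387259_at, read 9.80, 9.84 and 10.02 against 8.57 to 9.32 (median 9.04), a difference of 0.87 log2 (SE 0.15, 1.83-fold, adjusted p = 0.000326). The remaining, dim probe set, 1378271_at, read 5.97, 5.43 and 5.58 against 5.46 to 5.84 and differed by -0.0027 log2 (95% confidence interval -0.26 to 0.25). With the end index in the model the brightest probe set still passed (1.70, adjusted p = 0.00264), and 1387259_at did not (0.48, adjusted p = 0.466).

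Ctnna1 encodes α-catenin, the actin-binding partner of the cadherin complex. Probe set 1371921_at read 12.02, 11.90 and 12.06 log2 in the low-low muscles and 12.34 to 12.57 (median 12.47) elsewhere, without overlap. It was lower by -0.46 log2 (SE 0.09, 0.726 times the level, adjusted p = 0.000847). The call held in all 12 fits that left out 1 array but not with the end index (-0.64, adjusted p = 0.107) or weight (-0.48, adjusted p = 0.0776) in the model.

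Ctnnb1 encodes β-catenin, which ties N-cadherin to α-catenin and also acts in the nucleus as the transcriptional partner of TCF factors. Its 3 tested probe sets did not share a direction. Probe set 1369733_at, listed with a curated mRNA accession, read 9.60, 9.18 and 9.38 log2 in the low-low muscles and 5.19 to 5.81 (median 5.32) in the other 9. That was the largest difference of any member, 4.03 log2 (SE 0.13, 16.3-fold, adjusted p = 9.25e-10). Probe set 1373067_at went the other way, with 10.10, 10.59 and 10.76 against 11.43 to 12.68 (median 11.71), a difference of -1.33 log2 (SE 0.22, 0.399 times the level, adjusted p = 0.000269). The brightest probe set, 1373470_at, read 12.62, 12.67 and 12.58 against 12.96 to 13.27 (median 13.14), or -0.51 log2 (SE 0.09, adjusted p = 0.000319). None of these 3 overlapped between the sets of arrays. The fourth, 1375284_at, stayed under the filter on every array at 3.61 to 4.07 log2.

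Direction for Ctnnb1 therefore depends on the probe set. Taking the brightest per gene gives a gene that is lower in the low-low group. Taking 1369733_at gives a gene that is 16.3-fold higher, measured against a dim signal of 5.19 to 5.81 log2 in the other arrays. Of 2626 genes with more than 1 tested probe set, 526 (20.0%) had at least 1 called higher and at least 1 called lower in the same comparison. The gap between the highest and lowest probe set was 5.35 log2 for Ctnnb1 against a median of 0.78 over those genes, and only Rdx, the actin-membrane linker radixin, had a wider gap (6.86). Rdx was named after its values were seen. Where on the transcript each probe set lies was not given in the sources used here.

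**Figure D2:**
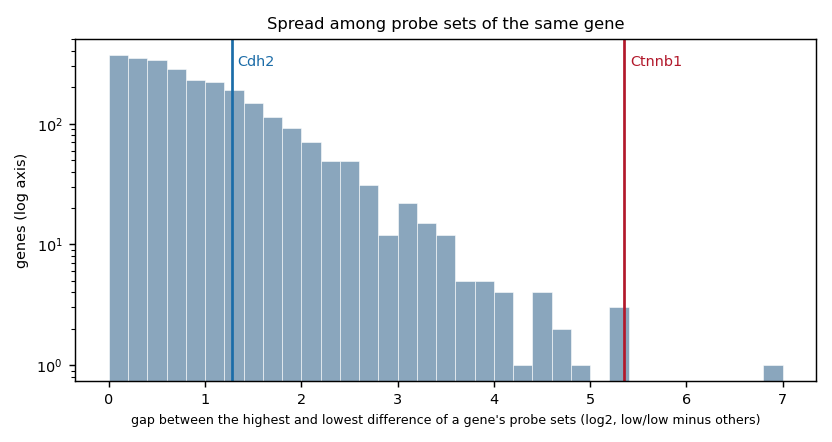
Gap between the highest and the lowest log2 difference (low-low minus the other 3 groups) among the probe sets of a gene, for the 2626 genes with more than 1 tested probe set; the count of genes is on a log axis. Ctnnb1 at 5.35 lies near the far end and Cdh2 at 1.27 lies within the bulk.

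The balance of directions differed with the kind of accession a probe set is listed with. Among all tested probe sets listed with a curated NM_ accession, 41.8% of 1690 were higher and 17.4% lower in the low-low group. Among those listed with no accession, 16.5% of 4934 were higher and 36.1% lower. The largest class, with another kind of accession, was close to even, with 30.1% of 12001 higher and 27.0% lower. Of the members, 4 tested probe sets were of the NM_ kind, and 3 of these were higher (Cdh2 1368642_at, Jup and Ctnnb1 1369733_at) and 0 lower. Of the 9 with another accession 2 were higher (Cdh2 1387259_at and Dsp) and 5 lower. The part of probe set design in the members' directions was not tested.

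At the gap junction, Gja1 encodes connexin 43, the main connexin of working ventricular muscle. Of its 3 probe sets only 1372002_at was above the filter, at 12.65, 12.36 and 12.09 log2 in the low-low muscles and 12.21 to 13.53 (median 12.77) in the others. The arrays overlapped, and the difference of -0.45 log2 (95% confidence interval -0.91 to 0.01, adjusted p = 0.0889) did not pass. It passed without high stretch low shortening replicate 1 (-0.55, adjusted p = 0.0129) and after a second quantile normalization (-0.74, adjusted p = 0.00969), and it turned to 0.86 (adjusted p = 0.233) with the end index in the model. Its widest spread was in the high stretch low shortening group, where the muscles read 12.21, 12.76 and 13.53. The other 2 Gja1 probe sets, one of them listed with a curated mRNA accession, read between 3.17 and 4.18 on every array.

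Gja5 encodes connexin 40, the connexin of atrial muscle, of the conduction system and of arterial endothelium. Probe set 1368473_at read 6.02, 5.88 and 5.35 log2 in the low-low muscles and 5.61 to 6.72 (median 6.05) elsewhere, and the difference of -0.35 log2 (95% confidence interval -0.72 to 0.01, adjusted p = 0.0900) did not pass, except without high stretch low shortening replicate 3 (-0.40, adjusted p = 0.0497). By group the means were 5.77 ± 0.18 with both inputs high, 6.35 ± 0.34 with high stretch and low shortening, 6.19 ± 0.18 with low stretch and high shortening, and 5.75 ± 0.35 in the low-low group (SD, n = 3 each). The Gja5 means were lower in both groups with like inputs than in both with unlike inputs, the order that the interaction below measures.

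Tjp1 encodes ZO-1, the scaffold that binds connexin 43 and borders gap junction plaques. Probe set 1372473_at read 11.55, 11.69 and 11.62 log2 in the low-low muscles and 11.70 to 12.02 (median 11.95) in the others, just short of overlap. The difference was -0.30 log2 (SE 0.09, 0.814 times the level, adjusted p = 0.0181). It did not pass without low-low replicate 1 (-0.26, adjusted p = 0.0751) or replicate 3 (-0.30, adjusted p = 0.0545), and it turned to 0.20 (adjusted p = 0.577) with the end index in the model. Its second probe set read 3.50 to 3.94 log2.

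Among the 3 groups other than low-low, no member probe set passed. Mean stretch at high shortening called 0 of 14 members in limma and 0% of all probe sets, and at an unadjusted p under 0.05 there were 0 members and 661 probe sets. Cyclic shortening at high stretch also called 0 members and 0%, with 1 member and 811 probe sets at an unadjusted p under 0.05. That member was Gja5, whose 1368473_at was lower by -0.58 log2 with high shortening (SE 0.20, unadjusted p = 0.015, adjusted p = 0.999). It read 5.61, 5.97 and 5.73 with high shortening and 6.72, 6.29 and 6.04 with low shortening. High stretch with low shortening against low stretch with high shortening again called 0 members and 0%, with 0 members and 1151 probe sets at an unadjusted p under 0.05. No limma setting tried, with the low-low arrays left out or kept, called a member in these 3 comparisons. The 95% confidence intervals reached 0.23 to 0.59 log2 to either side, with a median of 0.33. Those intervals are not adjusted for the number of probe sets, so differences beyond them, such as that of Gja5, could also miss the adjusted threshold. For Gja1 these comparisons gave 0.05, -0.00054 and 0.05 log2, for Dsp 0.12, 0.03 and 0.08, and for Pkp2 0.00093, 0.0080 and -0.0071.

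**Figure D3:**
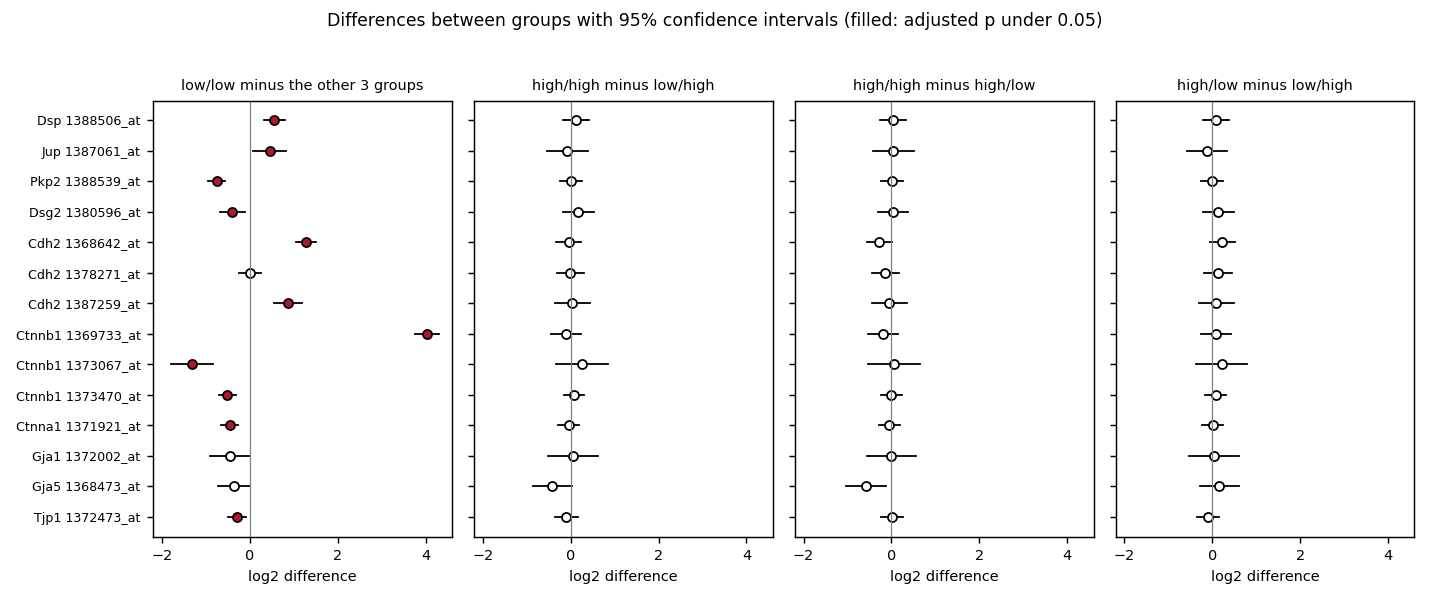
Log2 differences of the 14 tested member probe sets with their 95% confidence intervals in 4 comparisons of groups (mean stretch / cyclic shortening); filled points passed an adjusted p of 0.05 in limma. In the first panel 11 points are filled, from -1.33 to 4.03, and in the other 3 panels none is, with no point beyond 0.58 in size.

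The contrasts of the factorial design all subtract or add the low-low arrays, so they are not independent of the comparison above or of each other. For mean stretch, the high-stretch groups minus the low-stretch groups, 7 of 14 member probe sets passed (33.6% of all probe sets), 4 higher (14.4% of all) and 3 lower (19.2%) at high stretch. Those higher were Pkp2 (0.38 log2, SE 0.08, adjusted p = 0.00354), Ctnna1 (0.22) and the bright Ctnnb1 probe sets 1373067_at (0.82) and 1373470_at (0.31). Those lower were Cdh2 1368642_at (-0.58, SE 0.09, adjusted p = 0.000516), Cdh2 1387259_at (-0.39) and Ctnnb1 1369733_at (-2.02, SE 0.11, adjusted p = 6.27e-07). The Ctnna1 call ended in 9 of the 12 fits that left out 1 array and that of Cdh2 1387259_at in 8. A second quantile normalization gave 5 called higher and 2 lower. With the end index in the model all 4 higher calls ended (adjusted p = 0.107 for Pkp2, 0.193 for Ctnna1, 0.0753 for 1373067_at and 0.174 for 1373470_at), as did that of Cdh2 1387259_at (0.682), which left 0 higher and 2 lower. With weight in the model the calls of Ctnna1 (0.189) and Cdh2 1387259_at (0.663) ended. Over all 18625 probe sets 2406 were called with the end index and 3997 with weight, against 6252 without either. At low shortening, where this contrast meets the low-low group, 10 of 14 passed (48.5% of all).

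For cyclic shortening, the high-shortening groups minus the low-shortening groups, 7 of 14 passed (31.5% of all), 3 higher (14.4%) and 4 lower (17.1%) at high shortening. Pkp2 was higher by 0.38 log2 (SE 0.08, adjusted p = 0.00343), as were Ctnnb1 1373067_at (0.61) and 1373470_at (0.23). Cdh2 1368642_at was lower by -0.80 log2 (SE 0.09, adjusted p = 5.8e-05), Cdh2 1387259_at by -0.48, Dsp by -0.29 (adjusted p = 0.0358) and Ctnnb1 1369733_at by -2.11. A second quantile normalization gave 5 called higher and 3 lower, with Dsp no longer among them (-0.17, adjusted p = 0.212). Leaving out 1 array ended the calls of Dsp and of Ctnnb1 1373470_at in 10 of 12 fits each and that of Ctnnb1 1373067_at in 5. The count fell to 4 without high stretch low shortening replicate 2 or without low stretch high shortening replicate 2. Under the end index 5 calls held, without Cdh2 1387259_at (adjusted p = 0.114) and Ctnnb1 1373470_at (0.0963). With weight in the model 5 held, without Cdh2 1387259_at (0.0781) and Dsp (0.107), and with the replicate number as a block 1373470_at did not pass (0.0505). Over all 18625 probe sets 4806 were called with the end index and 4634 with weight, against 5861 without either. At low stretch, where this contrast meets the low-low group, 9 of 14 passed (47% of all).

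The interaction contrast took the shortening difference in highly stretched muscles and subtracted the same difference in muscles of low stretch. Of its tests, 9 of 14 member probe sets passed (32.3% of all), 4 positive (17.1%) and 5 negative (15.2%). The positive values were 3.82 log2 for Ctnnb1 1369733_at (SE 0.22, adjusted p = 9.51e-07), 1.05 for Cdh2 1368642_at (SE 0.18, adjusted p = 0.000983), 0.86 for Cdh2 1387259_at and 0.65 for Dsp. The negative values were -1.02 for Gja5 (SE 0.29, adjusted p = 0.0179), -0.75 for Pkp2 (SE 0.16, adjusted p = 0.00368), -0.52 for Ctnna1, -0.46 for Ctnnb1 1373470_at and -1.12 for 1373067_at. Gja5 was the member called here but not between the low-low group and the rest, and it kept its call in all 12 fits that left out 1 array (-1.17 to -0.82, adjusted p up to 0.0459). Under the end index 2 of the 9 calls held, Cdh2 1368642_at (1.65, adjusted p = 0.0360) and Ctnnb1 1369733_at (2.72, adjusted p = 0.00621). With weight in the model that of Ctnnb1 1369733_at held (3.93, adjusted p = 0.000469). The other calls ended, with adjusted p of 0.139 to 0.802 under the end index and 0.0579 to 0.922 under weight. Calls over all 18625 probe sets fell as well, from 6015 to 1104 and 2162 in the same order. Cdh2 1387259_at moved to 0.33 and 0.08, and Gja5 stood at -1.55 and -1.26 (adjusted p = 0.211 and 0.130). The call of Ctnnb1 1373067_at ended in 10 of those 12 fits, that of 1373470_at in 9, those of Dsp and Ctnna1 in 2 each and that of Cdh2 1387259_at in 1. The 1373067_at call also ended with the replicate number as a block (adjusted p = 0.0631). A second quantile normalization gave 3 positive and 6 negative calls, without Dsp (0.36, adjusted p = 0.178) and with Tjp1 (-0.55, adjusted p = 0.0290).

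Partner genes of the disc were counted from lists, each gene by its brightest tested probe set, in the low-low group against the other 3. Over all 10316 named genes 29% were higher and 27.7% lower, with a median of -0.02 log2. Of 6 tested desmosome partners 2 were higher and 1 lower (median -0.02). Des, the desmin filament that desmoplakin holds, was higher by 1.81 log2 (SE 0.17, adjusted p = 2.89e-06) and Perp, a membrane protein of desmosomes, by 1.05. Dsc2, the cardiac desmocollin, was lower by -1.78 (SE 0.30, adjusted p = 0.00029), at 6.19, 5.95 and 5.01 log2 against 6.34 to 8.09 elsewhere. The remaining partners Evpl (-0.10), Pkp1 (0.06) and Pkp4 (-0.34) did not pass. With 6 genes tested, these counts give no common direction for the desmosome partners.

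Of 14 adherens junction partners 2 were higher and 4 lower (median 0.04). Cdh13, a cadherin without a cytoplasmic tail, was higher by 1.31 log2 (SE 0.27). The focal adhesion protein Lpp (-0.68), the actin regulator Enah (-0.58) and the immunoglobulin-type adhesion protein Nectin3 (-0.52) were lower. Vcl, the vinculin that reinforces α-catenin, differed by -0.09 (95% confidence interval -0.35 to 0.17, adjusted p = 0.538). Ctnna3 and Xirp2 had no probe set with a single symbol and were not analysed here.

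Of 4 other connexins and pannexins tested 0 were higher and 2 lower (median -0.27). Gjc1, a connexin of the conduction system and early heart, was lower by -1.58 log2 (SE 0.10, adjusted p = 9.89e-08), at 8.25, 8.01 and 7.93 log2 against 9.56 to 9.84 in the other 9. Gja4, the endothelial connexin 37, was lower by -0.36 (adjusted p = 0.0494). Of the 11 genes of this list on the array, only these 4 were above the filter. In limma Gja3 (-0.19, adjusted p = 0.470) and the pannexin Panx1 (-0.04, adjusted p = 0.820) did not pass, nor did the members Gja1 and Gja5. With so few genes, and 27.7% of all named genes called lower, these counts give no direction for the connexins as a family. The partner values come from the fit without a covariate.

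Of 13 genes for the traffic and modification of connexin 43, 7 were higher and 1 lower (median 0.34). Tsg101, an ESCRT subunit that sorts connexin 43 for breakdown, was higher by 2.07 log2 (SE 0.10, adjusted p = 1.06e-08), the kinase Akt1 by 1.06 and the muscle caveolin Cav3 by 1.06. Ywhaq, a 14-3-3 protein, was lower by -0.42. Of 9 tight junction and zonula occludens partners 0 were higher and 3 lower (median -0.31), with the paracingulin Cgnl1 at -1.001 (adjusted p = 0.0437), the claudin Cldn12 at -0.58 and Cldn3 at -0.38. The receptor Cxadr, a disc protein, differed by 0.19 (adjusted p = 0.344).

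Of 13 disc scaffold and channel genes 2 were higher and 2 lower (median 0.02). Sorbs2, an adaptor of Z-discs and intercalated discs, was higher by 0.95 log2 (SE 0.09) and Ank3, the membrane adaptor ankyrin G, by 0.73. Lmo7, a LIM-domain protein of cell junctions, was lower by -0.91 (SE 0.09) and the scaffold Dlg1 by -0.71. The disc proteins Xirp1 (-0.04, adjusted p = 0.834) and Nrap (-0.10, adjusted p = 0.502) did not pass. Of 17 genes for β-catenin turnover and transcription 4 were higher and 4 lower (median 0.11). Btrc, the ligase subunit that marks β-catenin for breakdown, was higher by 0.74 log2, the kinase Gsk3b was lower by -0.47, and the TCF factors split, with Tcf7l1 at 0.45 and Tcf7l2 at -0.60, all 4 called.

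**Figure D4:**
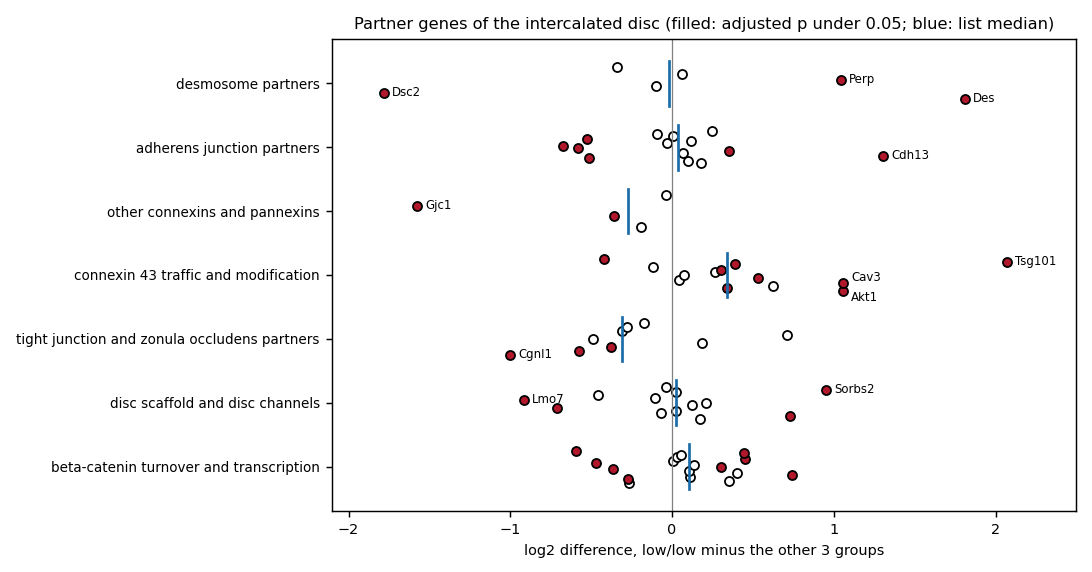
Log2 difference (low-low minus the other 3 groups) of each tested partner gene, by list; filled points passed an adjusted p of 0.05 in limma, and blue bars are list medians. Filled points lie on both sides in 5 of the 7 lists, from Dsc2 at -1.78 to Tsg101 at 2.07.

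The labelled tissue carried its markers: all 10 cardiomyocyte markers on the array were above the filter. The sum of their intensities on the linear scale was 138478 to 144551 in the low-low arrays and 102136 to 112658 in the others, with 6 genes called higher and 1 lower. Sums for 7 conduction-system markers were 1582 to 1627 against 1949 to 2682, 2 of 5 tested being lower, with Cntn2 and Kcne1 under the filter. For 7 epicardial and mesothelial markers, of cells that also form desmosomes, sums were 238.3 to 258.5 against 390.7 to 798.5, with 5 under the filter (Krt8, Krt18, Krt19, Msln and Upk1b) and 1 of 2 tested lower. For 8 endothelial markers they were 1941 to 2902 against 2348 to 3082, 2 higher and 2 lower. The part of cell composition in the junction genes was not tested.

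The named genes most like Gja1 1372002_at, by the mean absolute difference of values centred on each probe set's own mean over the 12 arrays, were Map3k1 (0.07 log2), Nab1 (0.09) and Zfp870 (0.11), against a median of 0.35 over all. For Dsp 1388506_at they were Clasp1 (0.07), Epas1 (0.07) and C1r (0.09), against 0.31.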

How the data were processed

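The deposited tables hold log2 intensities from Affymetrix arrays, made by the authors with RMA per the submitters' processing notes (version not stated). A deposited filtered table, per its file header without spike-in controls and with an intensity filter of 50, held 16391 of 31099 probe sets, and its values equalled those of the full table (largest difference 0). Of 31042 probe sets besides 57 controls, 20826 had a single symbol in GEO's platform annotation, 436 several and 9780 none; 20758 matched RefSeq (GRCr8) by gene number, with 0 symbols changed. Probe sets with a mean under the 40th percentile were left out, and 18625 were fitted in limma 3.58.1 (R 4.3.3) with a mean per group, all 12 arrays sharing the spread, empirical Bayes moderation and Benjamini-Hochberg adjustment over all 18625 (threshold 0.05). Differences are on the log2 scale with moderated standard errors. The probe set was the unit, since every probe set of each member was wanted. The script was tested on simulated data. Each muscle came from a different rat. Replicate numbers were not taken to pair the muscles. Residuals of 18 same-numbered pairs had r of -0.16 to 0.21 (mean 0.0042), with 3 pairs over 0.1. These values cannot tell whether a number marks a shared batch. The number of arrays limits the precision. Figures were drawn with matplotlib 3.10.9.

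The member genes, partner and marker lists and contrasts were chosen with earlier results of these data known. Genes were named by rule: every member probe set, 12 partner genes whatever their values, up to 4 genes per partner list of smallest adjusted p in the interaction, and the 3 genes most like Gja1 and Dsp. Of the lists, those of smooth muscle (2 of 5 tested higher in the low-low group), fibroblasts (2 of 8 higher, 1 lower), macrophages (3 of 6 higher, 1 lower) and Schwann cells (0 of 1) were counted only here. Scanner files were not used here, so background correction and slide were not varied.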

Additional observations from a re-analysis of the deposited data

Results flagged for a closer look

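In 9 of 14 member probe sets the effect of shortening differed with stretch by the interaction term in limma, a call made for 32.3% of all probe sets tested. The values, in log2, were -1.02 for Gja5 1368473_at, 1.05 for Cdh2 1368642_at, 0.86 for Cdh2 1387259_at, 0.65 for Dsp 1388506_at, -0.75 for Pkp2 1388539_at, 3.82 for Ctnnb1 1369733_at, -1.12 for Ctnnb1 1373067_at, -0.46 for Ctnnb1 1373470_at and -0.52 for Ctnna1 1371921_at. For these except Gja5 the low-low group lay apart from the other 3, as described above. The 3 Ctnnb1 probe sets, read from a single gene, lay on both sides of 0. With the end index in the model only Cdh2 1368642_at and Ctnnb1 1369733_at kept the call, and with weight only Ctnnb1 1369733_at. The calls of Ctnnb1 1373067_at and 1373470_at ended in 10 and 9 of the 12 fits that left out 1 array.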

How the results depend on the processing

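Counts are of member probe sets called, out of 14 unless stated. With the end index (3' minus 5' control signal) in the model, 2 were called for stretch (0 higher), 5 for shortening, 2 for the interaction, 2 for stretch at low shortening, 3 for shortening at low stretch and 2 for the low-low group against the rest, the last being Cdh2 1368642_at and Ctnnb1 1369733_at. That covariate also reversed Tjp1 for shortening at low stretch (-0.11) and in the low-low group (0.20), and Jup in the low-low group (-0.61). Gja1, not called to begin with, changed sign with it as well, to 0.86 in the low-low group and 1.39 in the interaction. With weight in the model the counts were 1 for the interaction and 5 each for stretch, shortening, stretch at low shortening, shortening at low stretch and the low-low group. Calls over all 18625 probe sets fell too. For the low-low group they went from 10454 to 3364 with the end index and 5266 with weight. In the same order, stretch at low shortening went from 9033 to 2085 and 3990. Shortening at low stretch went from 8763 to 3275 and 4524, and the interaction from 6015 to 1104 and 2162. With 1 probe set per gene (10 tested), 4 were called for stretch, by construction fewer. The causes of the covariates' shifts were not tested. Leaving out each array gave 5 to 8 for stretch, 4 to 6 for shortening, 6 to 9 for the interaction, 8 to 12 for stretch at low shortening, 8 to 9 for shortening at low stretch, 8 to 12 for the low-low group and 0 to 0 for the 3 comparisons among the other groups. With the replicate number as a block, 6 were called for stretch, 6 for shortening, 8 for the interaction and 11 for the low-low group. The numbers were not taken to pair these muscles. The remaining alternatives (no filter, the authors' filtered table, raised dim values, repeated quantile normalization, a trended robust prior) left each count within 1.5 times. Of the single probe set values, 166 lost their call without changing sign, the 3 reversed ones lost it as well, and 28 gained it over all alternatives, against 2455 that kept their side of the threshold.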
